A study of Terfezia claveryi
Helianthemum almeriense and Terfezia claveryi with 9 samples.

Results

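Of the 12765 gene models listed for the desert truffle Terfezia claveryi, 100 had far higher transcript levels in drought-stressed mycorrhizal roots than elsewhere. The other conditions were well-watered mycorrhizal roots and cultured mycelium. Where members are called low in these groups below, this means low relative to drought roots. Levels were in CPM, the reads of a gene model scaled to the total gene reads of its library. A gene model was included when its mean in drought roots was at least 20 CPM and at least 8 times the mean of each other group, and when its lowest drought library lay above its highest value in the other 6 libraries. Reads were found in at least 1 library for 11241 of the gene models, and 6036 had a mean of at least 20 CPM in drought roots. Because these measured values chose the 100 members, the differences between drought roots and the other groups are given below as descriptions, without a test.

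Each of the 3 conditions had 3 libraries, which the labels name biological replicates without saying whether a library came from 1 plant or flask. Cultured mycelium was strain T7, grown in shaken liquid MMNo medium in the dark at 23 °C for 3 months. Root samples were secondary and tertiary roots of Helianthemum almeriense, a shrub of the rockrose family. These plants had grown for 2 months before truffle spores were added, and their watering was changed 3 months after that. Soil moisture was kept over 75% in the well-watered group, and was lowered to 40% in the drought group and held there until shoot water potential was below -2 MPa. Both root groups therefore carried fungus raised from spores, whereas the cultures were 1 strain. Uninoculated plants, which the labels also mention, were not analysed here.

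Terfezia claveryi is an edible ascomycete that fruits below ground in dry Mediterranean soils. In a mycorrhiza, the fungus receives sugars from the plant and hands on water and mineral nutrients taken up by its hyphae. Fungi short of water are known to build up small solutes such as trehalose, glycerol or mannitol, to make chaperones, and to alter their cell walls and membranes. The files do not pair the Tercla1 identifiers with gene names or products, and sequence or annotation was not used, so none of the 100 members is assigned to such a role and gene models other than those picked by a fixed rule are called by their length.

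Total gene reads were 15855363 to 31854784 in cultures, 869998 to 1635015 in well-watered roots and 3493361 to 5470044 in drought roots, counting only reads assigned to fungal gene models. The well-watered libraries were thus the shallowest. Within each group 1 library differed more from the other two than those did from each other. In drought roots, replicates 1 and 3 had a chi-square of 10.6 per degree of freedom over gene models with at least 10 reads, against 73.7 and 70.2 for the pairs that include replicate 2. The closest pairs of the other groups were replicates 2 and 3, at 13.9 in cultures and 4.09 in well-watered roots. Sampling noise alone gives a value near 1, so no pair differed by sampling noise only, and no pair of libraries was counted as a single sample. These values cannot show whether the libraries came from separate plants or flasks.

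Together the members took 9.11% of the fungal gene reads in drought replicate 1, 8.86% in replicate 2 and 8.26% in replicate 3. In well-watered roots they took 0.235%, 0.227% and 0.214%, and in cultures 0.176%, 0.268% and 0.276%. The share was thus alike across the drought libraries, and well-watered roots and cultures overlapped at a small fraction of it. The group means were 8.75 ± 0.439% in drought roots, 0.225 ± 0.0106% in well-watered roots and 0.240 ± 0.0554% in cultures (SD, n = 3 each). Of the 50 gene models with the most reads in drought roots 13 were members, and 3 of these were among the top 10. No member was among the top 50 of either cultures or well-watered roots. The rule chose the members by these same levels, so these counts are not independent of it. In bulk RNA, fewer fungal cells of a kind and less transcript per cell cannot be told apart.

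**Figure D1:**
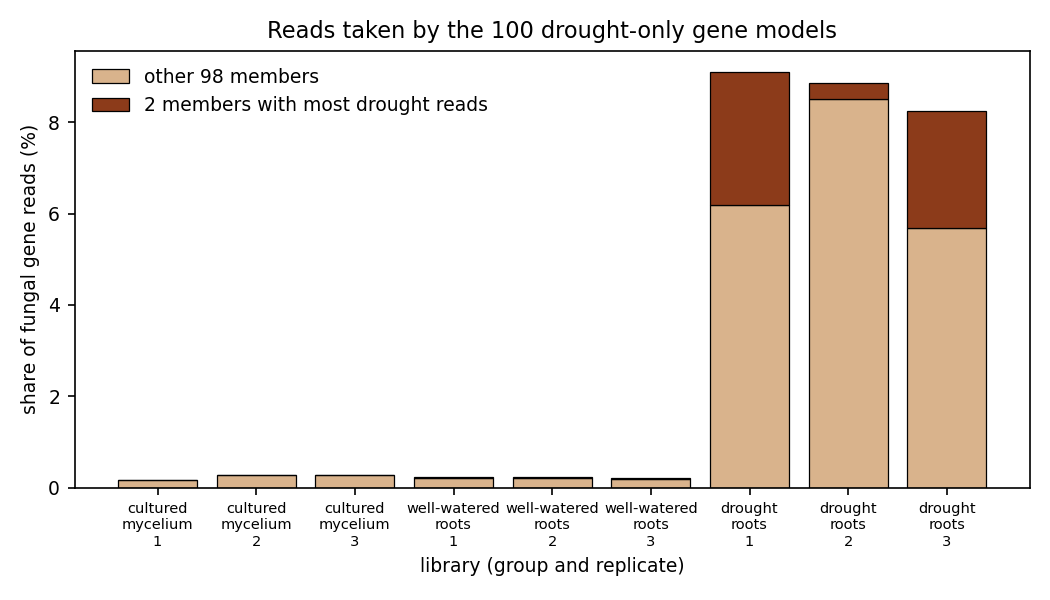
Share of all fungal gene reads (%) taken by the 100 members in each library, with 1 bar per library. The 2 members with the most drought reads are the dark part: they took 2.92% and 2.57% of reads in drought replicates 1 and 3 and 0.346% in replicate 2, where the other 98 took more.

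Both members with the most reads in drought roots were lowest in drought replicate 2. jgi|Tercla1|1161677|, a gene model of 1497 bases, was at 19412, 691 and 17833 CPM in drought replicates 1, 2 and 3. It was at 0.750, 11.6 and 1.15 CPM in the well-watered libraries and at 0.505, 0 and 0.10 CPM in the cultures. Replicate 2 held far less of it than the other drought libraries and still lay well above all other conditions. Its drought mean was 12646 ± 10383 CPM (SD, n = 3), rank 2 among all gene models, against 4.51 ± 6.16 in well-watered roots and 0.202 ± 0.267 in cultures. The 21 reads in well-watered roots and 11 in cultures were too few for the low-count filter of the test described below.

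The member with the next most reads, jgi|Tercla1|1261931| (2036 bases), was at 9747, 2771 and 7857 CPM in the drought libraries. It stood at 182, 191 and 175 CPM in well-watered roots and at 4.23, 1.76 and 1.73 CPM in cultures. Here the well-watered libraries also lay above all cultures, so that the 3 conditions formed separate steps. Drought replicate 2 was well below the other drought libraries. Both models together took 1.94% of the fungal reads in drought roots as a mean of the 3 libraries, and 2.74% without drought replicate 2.

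Below these, 22 members in all had a drought mean of at least 1000 CPM, 50 lay between 100 and 1000, and 28 between 20 and 100. The 10 members with the most reads took 56.8% of the set's drought reads and the 50 with the fewest took 6.69%. A 354-base model, the more abundant of the 2 with that length, reached 4295, 7486 and 3738 CPM under drought, against 6.12 to 11.5 in well-watered roots and 57.1 to 74.9 in cultures. A 1428-base model, likewise the more abundant of 2, stood at 4788, 5578 and 4187 CPM under drought, at 0.750 to 8.56 in well-watered roots and at 60.9 to 245 in cultures. In both, the well-watered libraries were lower than every culture. A 3318-base model, at 4558, 5143 and 4302 CPM under drought, overlapped between the other groups, with 36.0 to 122 in well-watered roots and 86.7 to 169 in cultures.

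Scaled by length, the order of the members was another one. In deposited RPKM, which are CPM scaled to the length of the gene model in kilobases, the 354-base model was highest in drought roots at 14613 ± 5713 (SD, n = 3). A 270-base model followed at 13867 ± 2816 RPKM. These levels did not differ beyond their spread. jgi|Tercla1|1161677| came next at 8447 ± 6936 RPKM, and a 165-base model at 4659 ± 2792. Over the 100 members, mean RPKM in drought roots ran from 14.5 to 14613 with a median of 384, whereas the median was 3.57 in well-watered roots and 6.19 in cultures. For all gene models with a read the medians were 19.0, 15.6 and 18.8 in drought roots, well-watered roots and cultures. Some members lay above these medians outside drought roots too, such as a 1071-base model at 438 RPKM in well-watered roots and 238 in cultures.

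**Figure D2:**
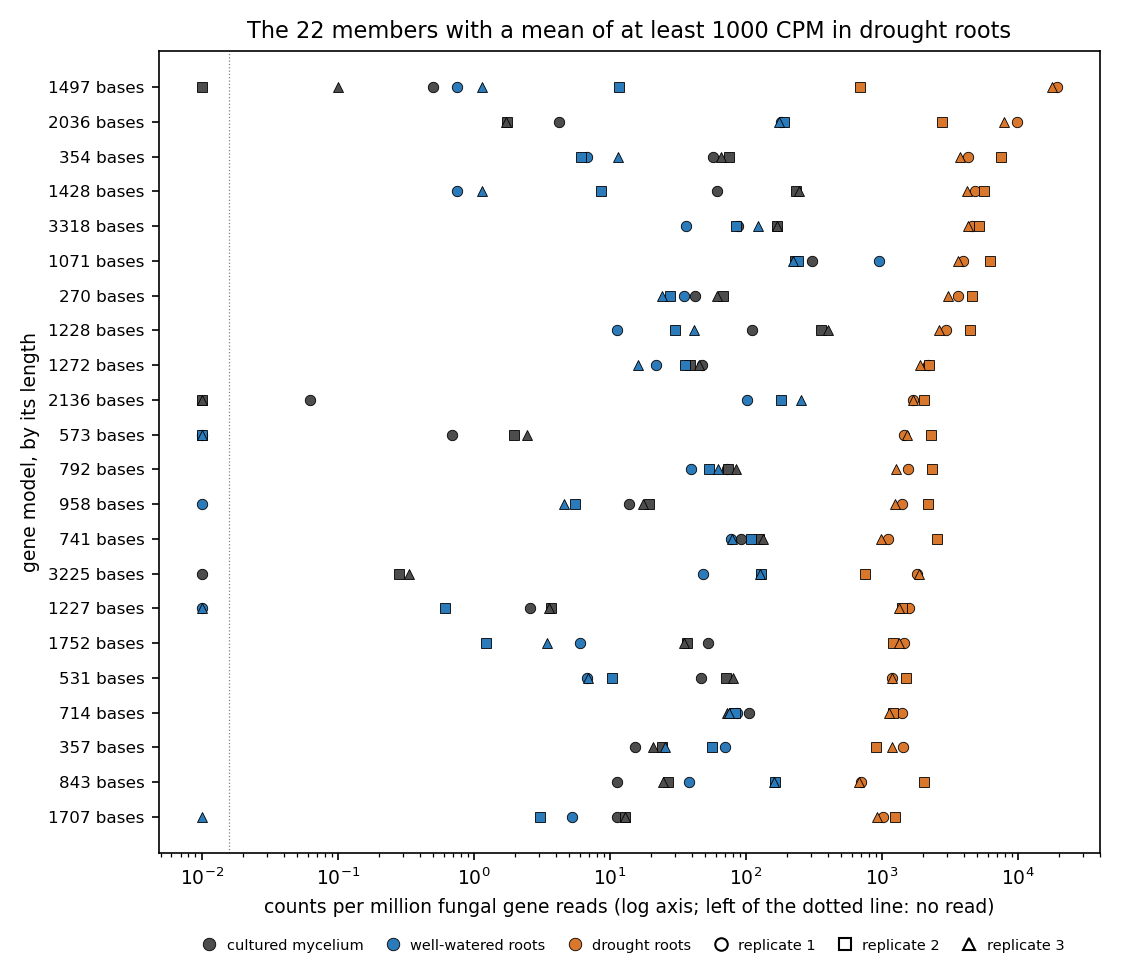
Level in CPM (log axis) of the 22 members with a drought mean of at least 1000 CPM, with 1 row per gene model in order of that mean and 1 point per library, so that 9 points stand in each row. Points left of the dotted line had no read. The drought points lie to the right in every row, as the rule requires, while cultures and well-watered roots change places from row to row.

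The distance to the other groups varied widely among members. Against well-watered roots the ratio of mean CPM had a median of 37.0, and it was at least 100 for 30 members and under 16 for 25. Against cultures the median was 28.7, with 24 members at 100 or more and 26 under 16. These ratios take a group without reads at a floor of 3 reads over the group, which is 0.781 CPM in well-watered roots and 0.0386 CPM in cultures. Such ratios are lower bounds. Members with 1 to 3 reads in a group, 9 in well-watered roots and 2 in cultures, keep their own mean there. Their ratios rest on few reads and can exceed those taken at the floor. The 2 ratios share the drought libraries. A ratio of at least 100 against each was found for 10 members.

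No read was found in well-watered roots for 8 members, which were 198 to 573 bases long. The highest of these under drought was the 573-base model, at 1449, 2293 and 1512 CPM, with 0.694 to 2.47 in cultures. The 198-base model stood at 295, 1023 and 360 CPM under drought and at 2.83 to 4.48 in cultures. The lowest was a 285-base model at 16.3, 26 and 18.9 CPM. The 8 became 11 without well-watered replicate 1, 13 without replicate 2 and 9 without replicate 3, so the number depends on the depth of this group. Whether the fungi raised from spores carry a gene without reads was not tested.

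No read was found in cultures for 3 members. A 789-base model stood at 541, 887 and 563 CPM under drought and had 4 well-watered reads, which came from replicate 2. A 315-base model was at 371, 157 and 307 CPM under drought and at 34.5, 17.1 and 14.9 in well-watered roots. The 309-base model was far lower, at 19.0, 36.7 and 13.2 CPM under drought. These models were thus seen in root samples alone, and their presence in strain T7 was not tested. Root samples also hold plant RNA, and whether any of its reads were assigned to these models was not tested.

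The criteria cut through a continuous range. The member with the lowest drought mean was the 285-base model at 20.4 CPM, and the gene model nearest outside, of 1554 bases, stood at 18.5 CPM. For the ratio to cultures the nearest values were 8.06 inside and 7.56 outside, and for the ratio to well-watered roots 8.03 and 7.87. The numbers kept out by a single criterion were 35 for the drought level, 70 for the ratio to cultures and 80 for the ratio to well-watered roots. Only 5 gene models passed the level and both ratios and failed on overlap. Each of these had a drought library under 10 CPM, as in a 1639-base model at 45.7, 0 and 49.8 CPM and a 735-base model at 5.12, 87.5 and 0 CPM in drought roots.

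The selection was then repeated without each drought library, and the library left out was read afterwards. Without replicate 1 the rule gave 112 gene models, and 81 of them (72.3%) reached 8 times the mean of both other groups in replicate 1, where 2.33% of the 11241 gene models with a read did so. Without replicate 2 it gave 86, and 75 (87.2%) reached this in replicate 2, against 2.48% of all. Without replicate 3 it gave 116, and 79 (68.1%) reached it in replicate 3, against 2.25%. In the library not used for the choice, most models chosen were therefore high again, and 110 of 112, 82 of 86 and 114 of 116 lay above all 6 other libraries. Cultures and well-watered roots were the same in both steps, so only the drought side of this reading was independent of the choice. Replicates 1 and 3 were also the closest pair, and the choice made without replicate 2 is the one read in the library least like those that made it.

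The rule set no order between the 2 groups in which the members are low, and this comparison was tested. For the members, however, the rule capped both groups relative to drought roots in the libraries tested, and other gene models were not so capped. The members' shares, set beside those of all gene models, are therefore not independent of the choice. The test asks whether the fungus in a well-watered root and in culture held these transcripts at the same level. Well-watered roots were compared with cultures over all gene models with edgeR's quasi-likelihood test on these 6 libraries, with Benjamini-Hochberg adjustment and a threshold of 0.05. Of the 100 members 88 passed the low-count filter, which the drought libraries do not enter, and 12 had too few reads. In well-watered roots 16 members (18.2%) were higher and 29 (33.0%) were lower than in cultures. Of all 8919 gene models tested, 24.4% were higher and 24.5% lower. Changed members made up 51.1% of those tested and changed gene models 48.9%, so the members changed about as often as the rest, and the remaining 43 members did not pass.

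The number of lower members changed with the libraries left out. They numbered 19 of 62 tested without culture replicate 1, 11 of 57 without culture replicate 2, 12 of 57 without culture replicate 3 and 19 of 96 without well-watered replicate 3. This is 30.6%, 19.3%, 21.1% and 19.8% of the members tested, and lower gene models then made up 19.2%, 16.8%, 16.9% and 21.8% of all those tested. Without well-watered replicate 1, 25 of 95 members were lower (26.3%), against 30.2% of all gene models. Without well-watered replicate 2 it was 24 of 94 (25.5%), against 20.5%. Members higher numbered 12 to 21 when single libraries were left out. This is 14.9% to 22.1% of the members tested, against 20.1% to 26.5% of all gene models tested. The members' share was the larger one without culture replicate 2 (21.1% against 20.5%) or 3 (21.1% against 20.2%). It was the smaller one in the other fits with a library left out. With library totals in place of trimmed-mean scaling, the median log2 fold change of all gene models moved from -0.11 to -0.31 and lower gene models made up 30.3% of those tested, while the members stayed at 16 higher and 29 lower.

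**Figure D3:**
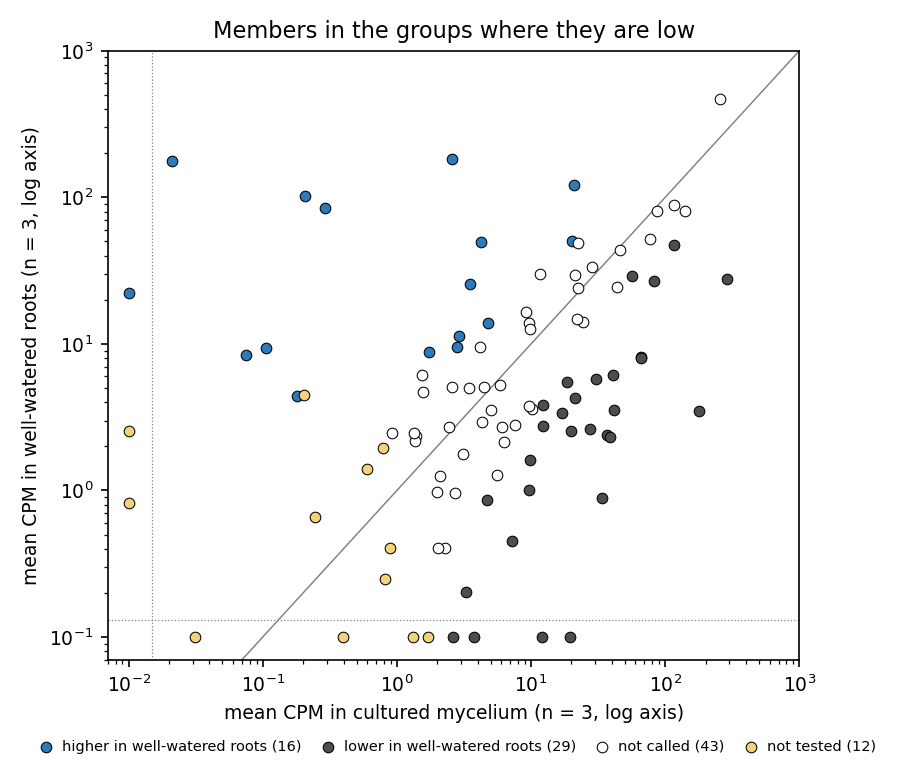
Mean CPM of each member in cultured mycelium (x axis) and in well-watered roots (y axis), both on log axes, with 1 point per member (n = 3 libraries per mean) and the line of equal levels. Points beyond a dotted line had no read in that group; 16 members lay higher in well-watered roots, 29 lower, 43 did not pass the test and 12 were not tested.

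The 16 members that rose from culture to well-watered root all did so at least 2-fold by the fitted change. By that change jgi|Tercla1|1273504| and jgi|Tercla1|1102786| rose most. jgi|Tercla1|1273504| (2136 bases) was at 101, 181 and 252 CPM in well-watered roots, had 1 read in the 3 cultures together, and reached 1699, 2040 and 1701 CPM under drought. Its well-watered libraries all lay above its cultures, and it rose from culture to well-watered root (edgeR adjusted p = 9.7e-06). The pooled ratio of well-watered roots to cultures was 13157 with a 95% counting interval from 2353 to 520473, and without culture replicate 1, which held the read, the rise was at least 3491-fold. Leaving out culture replicate 2 or 3 gave a pooled ratio of 7764 or 8078.

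jgi|Tercla1|1102786|, the 315-base model described above, had no culture read and 87 in well-watered roots, at least 587-fold higher there against the floor (edgeR adjusted p = 0.000119). Leaving out culture replicate 2 or 3 lowered this to 346 or 360. Others of this kind were a 3225-base model, at 48.0, 130 and 128 CPM in well-watered roots and 0 to 0.333 in cultures, and the 165-base model, at 52.5, 86.8 and 113 against 0.126 to 0.50. jgi|Tercla1|1261931| also belonged here, with a log2 fold change of 6.41 ± 0.40 (SE, edgeR adjusted p = 1.58e-05).

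The 29 members that fell from culture to well-watered root included 28 with a fitted change of at least 2-fold. jgi|Tercla1|1289116|, of 556 bases, and jgi|Tercla1|1271319|, of 423, fell most by the fitted change and had no read in well-watered roots. jgi|Tercla1|1289116| stood at 13.6, 23.7 and 21.2 CPM in cultures and at 248, 585 and 248 under drought, so it was at least 26.5-fold lower in well-watered roots than in cultures (edgeR adjusted p = 0.00106). Leaving out replicate 1 or 2 of the well-watered roots lowered this to 17.3 or 15.2. jgi|Tercla1|1271319| stood at 8.14, 13.2 and 15.1 CPM in cultures and at 158, 334 and 170 under drought, at least 16.5-fold lower in well-watered roots (edgeR adjusted p = 0.00241), or 10.8-fold and 9.48-fold with replicate 1 or 2 of that group left out. Both were detected in every culture and every drought library and in no well-watered library.

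More abundant members among the 29 had reads in all groups. The 1428-base model fell by 5.26 ± 0.82 on the log2 scale (SE, edgeR adjusted p = 0.00115), and the 354-base model by 2.88 ± 0.31 (edgeR adjusted p = 0.000187). A 1228-base model was at 11.2, 30.0 and 41.4 CPM in well-watered roots, 111, 357 and 401 in cultures, and 2964, 4413 and 2608 under drought. For these models the well-watered root was the lowest of the 3 conditions, whereas drought was the highest by the rule.

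Other abundant members showed little between the 2 low groups. A 714-base model stood at 86.2, 82.6 and 74.7 CPM in well-watered roots and 105, 82.2 and 72.3 in cultures, with a log2 difference of 0.12 ± 0.20 (SE, edgeR adjusted p = 0.641), and at 1392, 1212 and 1131 under drought. A 741-base model was at 78.0, 109 and 79.3 CPM against 92.2, 125 and 133, with a log2 difference of -0.18 ± 0.24 (SE, edgeR adjusted p = 0.563). A 1071-base model was held apart by 1 library, with 944 CPM in well-watered replicate 1 against 243 and 221 in the other two and 229 to 304 in cultures (edgeR adjusted p = 0.110). A p above the threshold does not show that such levels were equal.

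Within drought roots the members also differed among themselves. Drought values chose the members, so their spread, here and in the next paragraph, is not independent of the choice. Without replicate 2 the rule chose 78 of the 100 members again, against 99 without replicate 1 and 98 without replicate 3. Replicate 2 was the highest drought library for 79 members and the lowest for 15. Among the other 5936 gene models with a drought mean of at least 20 CPM it was the highest for 46.9% and the lowest for 39.5%. The ratio of replicate 2 to the mean of replicates 1 and 3 had a median of 1.6 over the members, against 1.05 over those other gene models. Replicates 1 and 3 lay within 1.5 times of each other for 95 members (95%) and for 87.2% of the other gene models. The coefficient of variation over the drought libraries had a median of 34.7% and ran from 3.15% to 126%, whereas the other gene models had a median of 24.7% and a range of 0.181% to 159%.

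Both ends of that range had low to middle levels. A 393-base model was steadiest, at 91.4, 88.0 and 85.9 CPM. The most variable were a 408-base model, at 5.12, 53.9 and 6.87 CPM, and a 1319-base model, at 8.96, 68.9 and 12.6. In these a single library carried most of the drought mean. Replicate 2 was at least 2 times the mean of the other two for 26 members (26%), against 9.2% of the other gene models. It was at most 0.5 times that mean for 7 members (7%), against 11.6% of the others.

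The 15 members lowest in replicate 2 looked different in the other groups from the 79 that were highest there. Their median level was 1.37 CPM in cultures and 4.51 in well-watered roots, whereas the 79 had medians of 9.19 and 3.81. Of the 15, 10 had a higher mean in well-watered roots than in cultures, 7 of them past the test, and 3 passed in the other direction. Of the 79, 29 had a higher mean in well-watered roots, with 7 past the test, and 25 passed in the other direction. Over all 8919 gene models tested, 24.4% passed as higher and 24.5% as lower. How many other gene models lowest or highest in replicate 2 passed was not counted. A similar lean was seen outside the set: the well-watered mean was the higher one for 54.7% of the other gene models lowest in replicate 2 and for 30.6% of those highest there. The groups of 15 and 79 were formed after their values were seen, and no test was made.

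**Figure D4:**
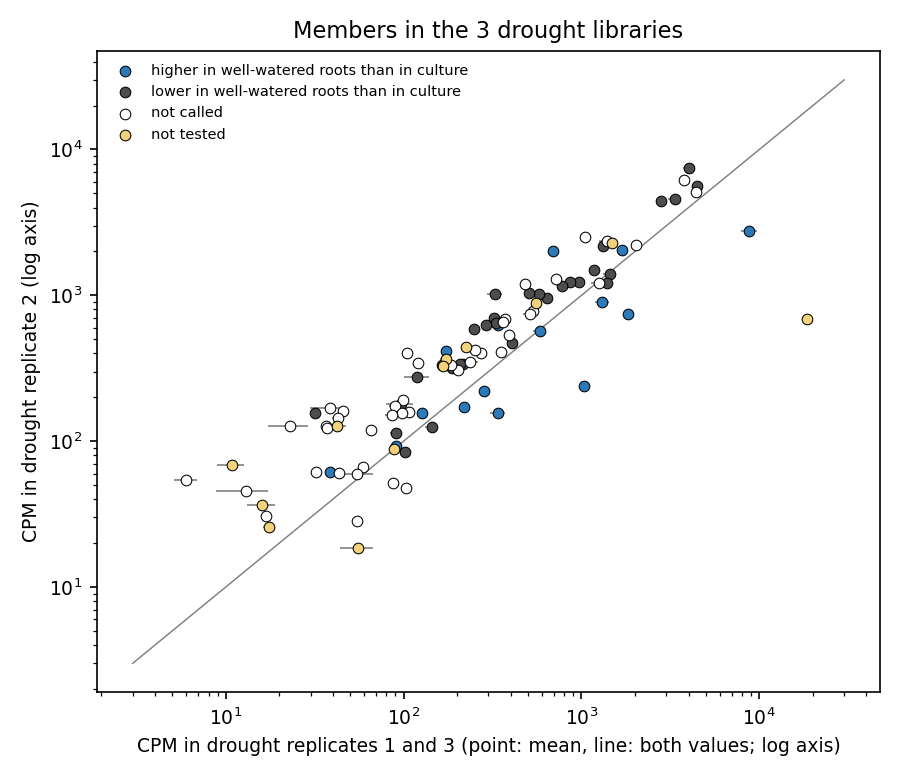
CPM of each member in drought replicate 2 (y axis) against drought replicates 1 and 3 (x axis), both on log axes; a point stands at the mean of replicates 1 and 3, a horizontal line joins both values, and the diagonal marks equal levels. Most points lie above the diagonal; among those below it, jgi|Tercla1|1161677|, not tested between the low groups, stands farthest out at 691 against 19412 and 17833 CPM, and several others were higher in well-watered roots than in culture.

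The median length of the members was 918 bases, with a range of 165 to 4595, against a median of 1132 for all gene models with a read and 1497 for those with a drought mean of at least 20 CPM. Up to 300 bases were found for 10 members (10%), against 3.01% and 0.795% of these backgrounds. Lengths were a multiple of 3 for 72.0% of the members, against 61.3% and 64.5% of these backgrounds. Length did not enter the ratios of the rule. The level of 20 CPM is not scaled to length, and the gene models that reached it had the longer median given above. The reason for the difference was not tested.

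Most reads of the set were placed on a single gene model. All reads were unique for 86 members, and for 9 members (9%) less than 90% were. This share was 10.2% of all gene models with a read and 5.93% of those with a drought mean of at least 20 CPM. The lowest was a 517-base model with 4.18% unique reads, which stood at 47.2, 169 and 29.8 CPM under drought. The members named or described in the preceding paragraphs were all at 90% or more. Models with shared reads included 3 of the 16 that rose from culture to well-watered root, of 219, 291 and 667 bases, and 2 of the 29 that fell, of 619 and 854 bases with 34.1% and 45.4% unique reads. The levels of all 5 are less certain. On unique gene reads the rule gave 97 gene models, all of them members.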

How the data were processed

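RNA from cultured mycelium and from mycorrhizal roots was sequenced as read pairs of 75 bases, per the series' design text, with 3 libraries per group. Per the file headers, the authors deposited unique and total gene read counts and RPKM for 12765 gene models. The submitters' processing notes list the programs Bowtie2 2.3.0, SAMtools 1.7 and FastQC. What each did, the counting program and its use of strand were not given in the sources used. Counting error alone is covered by intervals and floors.

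Lengths were solved from deposited RPKM and total gene reads and were whole numbers within a relative tolerance of 1e-06. The members and lists were chosen with earlier results of these data known. CPM used total gene reads. Well-watered roots were compared with cultures in edgeR 4.0.16 (R 4.3.3): filterByExpr, TMM scaling, robust quasi-likelihood F test, Benjamini-Hochberg over all gene models tested. Standard errors were derived from the F statistic. The step was tested on simulated data. Replicate numbers are those of the labels' descriptions; the sample titles number the libraries otherwise. The pairing check is in the closing section. P-values weigh the difference between groups against the spread between these libraries, estimated with information shared across gene models. Whether this is a spread between plants or flasks is not known. Identifiers were printed by rule: the 2 members with the highest mean drought CPM, and the 2 largest fitted rises and falls among called members. No gene lists could be applied without product names. Other models were chosen for description after their values were seen. Alternatives used DESeq2 1.42.0 and limma 3.58.1.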

Additional observations from a re-analysis of the deposited data

How the results depend on the processing

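The number of members depended on the ratio required: 202 gene models passed at 4 times and 55 at 16 times. Other settings gave 86 to 116, the lowest without drought replicate 2 (78 of the 100 members among them) and the highest without drought replicate 3. TMM scaling gave 88, DESeq2 size factors 91 and thinning to 869998 reads 97, of which 92 were members. The members' share of drought reads was 8.28% with TMM scaling, and that of well-watered reads 0.249% with TMM and 0.253% with DESeq2 factors; cultures, above well-watered roots with library totals, were then at 0.230% and 0.224%. Set beside gene models with a drought mean of at least 20 CPM, the median length compared with was 1497 bases in place of 1132.

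Between well-watered roots and cultures, thinning left 39 members tested, of which 10 were higher and 14 lower. This is 25.6% and 35.9%, against 25.4% and 22% of the 6945 gene models then tested. Leaving out single libraries gave 12 to 21 members higher and 11 to 25 lower. Higher members were then 14.9% to 22.1% of those tested, against 20.1% to 26.5% of all gene models tested. Lower members were 19.3% to 30.6%, against 16.8% to 30.2%. Whether the share of members or that of all gene models was larger differed between these fits, for higher and for lower calls. Members chosen without each drought library, an alternative added after seeing the data, did not move the higher or lower count by over 1.5 times. Libraries of the 2 groups with the same number in the labels' descriptions did not deviate together (correlations 0.0717, -0.00334 and 0.0109 across 8919 genes). By the sample titles, which number them otherwise, the number shared by culture replicate 2 and well-watered replicate 3 gave 0.0413, and culture and well-watered replicates 1 share a number in both. The libraries were taken to share only a number. With the replicate block 16 members were higher (18.2%) and 23 lower (26.1%), against 21.2% and 22% of all gene models tested. This fit called 3854 gene models in place of 4359. The calls of the 5 tested members named by identifier were kept under every alternative in which they were tested.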
